A study of Mus musculus with 28 samples.

Results

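Procollagen is folded and modified in the endoplasmic reticulum (ER) by a small group of dedicated proteins, and 10 genes for them were followed here through the RNA of mouse tail tendon. The 10 genes were chosen by name: the collagen chaperone Serpinh1 (HSP47), the prolyl 4-hydroxylase catalytic subunits P4ha1, P4ha2 and P4ha3, the prolyl 3-hydroxylase P3h1 with its partners Crtap and Ppib (cyclophilin B), the related P3h3, the prolyl isomerase Fkbp10 (FKBP65) and the collagen galactosyltransferase Colgalt1. They are 10 of the 25719 genes in the count tables, and all 10 passed the filter on low counts in each comparison.

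The study compared Fosl-2(Tg) mice, which carry a murine Fosl2 transgene driven by a major histocompatibility class I promoter, with non-transgenic wild-type (WT) controls from the same breeding, at an early and at an established stage of tendon fibrosis. All mice were C57BL/6. Total RNA of homogenised tail tendon fascicles was depleted of ribosomal RNA and sequenced in 28 libraries, 1 per mouse: 7 WT and 8 Fosl-2(Tg) at the early stage, 6 WT and 7 Fosl-2(Tg) at the established stage. Mice of the established stage were older than those of the early stage, and the labels give no age. Early mice were all male. Established mice were female except for 1 WT and 1 Fosl-2(Tg) male, library 5 of each group, so stage and sex cannot be told apart. The transgene promoter is active in many cell types, so the model is not limited to tendon cells.

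Type I procollagen is made of chains whose prolines must be hydroxylated before the triple helix is stable at body temperature. Prolyl 4-hydroxylase does this on many prolines as a tetramer of catalytic alpha subunits with protein disulfide isomerase (P4hb) as the beta subunit. The complex of P3h1, Crtap and Ppib modifies single prolines and acts as a chaperone and isomerase, Serpinh1 binds the folded helix until the Golgi, and Fkbp10 works beside it in folding and cross-linking. Loss-of-function mutations in several of these genes cause recessive forms of osteogenesis imperfecta, and tendon, which consists mostly of type I collagen, depends on the same machinery.

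Library totals ran from 9645598 to 66894396 counts, and the lowest count of any of the 10 genes in any library was 29, for P4ha2. Levels are given as CPM, the usual library-size scaling of counts, after TMM scaling of all 28 libraries, and differences between genotypes as log2 of Fosl-2(Tg) over WT from a fit of each cohort in edgeR, with the standard error (SE). A gene was called when its adjusted p-value over all genes tested was at most 0.05. The tendon markers Scx, Tnmd, Mkx, Fmod, Thbs4, Comp and Kera were all present, with a summed level of 19300 to 34050 CPM in established WT libraries and 1755 to 27440 CPM in established Fosl-2(Tg) libraries. Fosl-2(Tg) established library 5 stood apart at 1755 CPM, and library 1 followed at 8160 CPM, nearer to the next, library 3 at 11330 CPM. The Fosl2 gene itself, to which transgene reads also count, was at 78.07 to 169.4 CPM in established WT and 121 to 160.1 CPM in established Fosl-2(Tg) libraries, with overlapping groups (0.38, SE 0.15, adjusted p = 0.141, edgeR). Early Fosl2 had a log2 difference of 0.20 (SE 0.24, adjusted p = 0.918, edgeR), so the RNA level of Fosl2 did not separate the genotypes at the threshold. In bulk tissue, fewer cells of a type and less RNA per cell cannot be told apart. The other marker lists were uneven between libraries: 8 skeletal muscle genes summed to 37.93 to 15240 CPM in the established cohort, 8 macrophage genes to 505.2 to 765.8 CPM in WT and 630.5 to 1014 CPM in Fosl-2(Tg), and 5 bone genes to at most 5.397 CPM. Of 5 erythroid genes the sum was 8.944 to 20.09 CPM in established WT and 10.22 to 125.6 CPM in established Fosl-2(Tg) libraries, and of 3 endothelial genes it was 3.375 to 44.8 CPM over both. Of the 8 macrophage genes 1 was called higher in the established cohort, and of the 7 tendon genes 2 were called lower. All 7 tendon genes had log2 differences below 0 there (median -1.16, -2.26 to -0.335). So had the 8 muscle genes (median -1.74, -2.76 to -0.924) and the 3 endothelial genes (median -0.701, -1.46 to -0.363), none called. The 8 macrophage genes (0.0472 to 1.07) and the 4 erythroid genes tested (0.164 to 3.06) were above 0. In the same cohort 5 keratinocyte genes summed to at most 3.672 CPM and 3 adipocyte genes to at most 0.6744 CPM. The part of these other cells in the results was not tested, apart from the fits with a muscle score and without muscle, erythroid and keratinocyte genes.

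Fosl-2 is a subunit of the AP-1 transcription factor. The 250 bases before each gene's canonical transcript start (GRCm39, GENCODE M39) were therefore searched on both strands for the AP-1 letters TGANTCA. They were found in 0 of the 10 windows and in 6.17% of the windows of 21770 protein-coding genes. The cyclic AMP element TGACGTCA was in 0 of 10 against 1.69%, and the ER stress element in 0 of 10 against 0.115%. The GC box GGGCGG was in 7 of 10 (36.3% of all genes). The CCAAT box CCAAT was in 2 of 10, P3h1 and Ppib (36.5%), and the letters ACGTG in 3 of 10, P4ha2, P3h3 and Ppib (17%). Of all these genes 14246 were tested in the established cohort. Among those the GC box was in 47.3%, the CCAAT box in 35.4%, ACGTG in 20.3% and the AP-1 letters in 4.79%. ACGTG overlaps TGACGTCA in part. No match says only that these letters are not in this window, and a match is a description of the sequence. The canonical transcript can start inside the gene. For Serpinh1, P4ha2, P3h1, P3h3, Crtap, Fkbp10 and Colgalt1 the window lay partly or wholly within the gene coordinates given below. The windows of P4ha1 and Ppib are shown because no annotated exon lies in them, and because P4ha1 held a GC box alone while Ppib held 3 of the motifs. The first is chr10:59158842-59159091 and the second chr9:65967131-65967380, both on the plus strand, with the matches in capitals.
P4ha1: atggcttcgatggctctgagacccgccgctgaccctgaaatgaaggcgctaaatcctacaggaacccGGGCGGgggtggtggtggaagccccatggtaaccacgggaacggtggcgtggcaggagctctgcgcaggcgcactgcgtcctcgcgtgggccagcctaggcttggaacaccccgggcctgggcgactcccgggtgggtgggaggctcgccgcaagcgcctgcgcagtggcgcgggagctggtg
Ppib: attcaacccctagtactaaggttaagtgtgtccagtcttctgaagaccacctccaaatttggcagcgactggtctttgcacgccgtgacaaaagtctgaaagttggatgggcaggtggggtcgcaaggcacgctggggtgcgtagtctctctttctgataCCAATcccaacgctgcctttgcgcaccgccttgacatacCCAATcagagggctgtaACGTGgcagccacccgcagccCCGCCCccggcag
In the P4ha1 window GGGCGG begins 183 bases before the start. In the Ppib window the CCAAT boxes begin 90 and 51 bases before it, ACGTG 34 bases before it, and the last capitals are the GC box read on the other strand, CCGCCC. The GC content was 69.2% for P4ha1 and 56.8% for Ppib, and the median over all genes was 53.2%.

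Levels of different genes were set side by side only per kilobase of the canonical transcript. In WT early tendons P4ha1 (237.6 ± 91.15 CPM per kb, SD, n = 7) and Serpinh1 (214.1 ± 69.57) had the highest means, followed by Ppib (121.4 ± 27.93), Crtap (87.27 ± 28.36), Fkbp10 (76.08 ± 24.92) and P3h3 (44.84 ± 10.32). P3h1 (21.21 ± 6.692) and Colgalt1 (16.97 ± 3.572) were lower, and P4ha2 (3.569 ± 1.088) and P4ha3 (3.144 ± 0.8992) were the lowest. The ranges of neighbours in this order overlapped, except for Colgalt1 (lowest 13.43) and P4ha2 (highest 5.063). The collagen they act on was far more abundant, at 30390 ± 16800 CPM per kb for Col1a1.

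**Figure D1:**
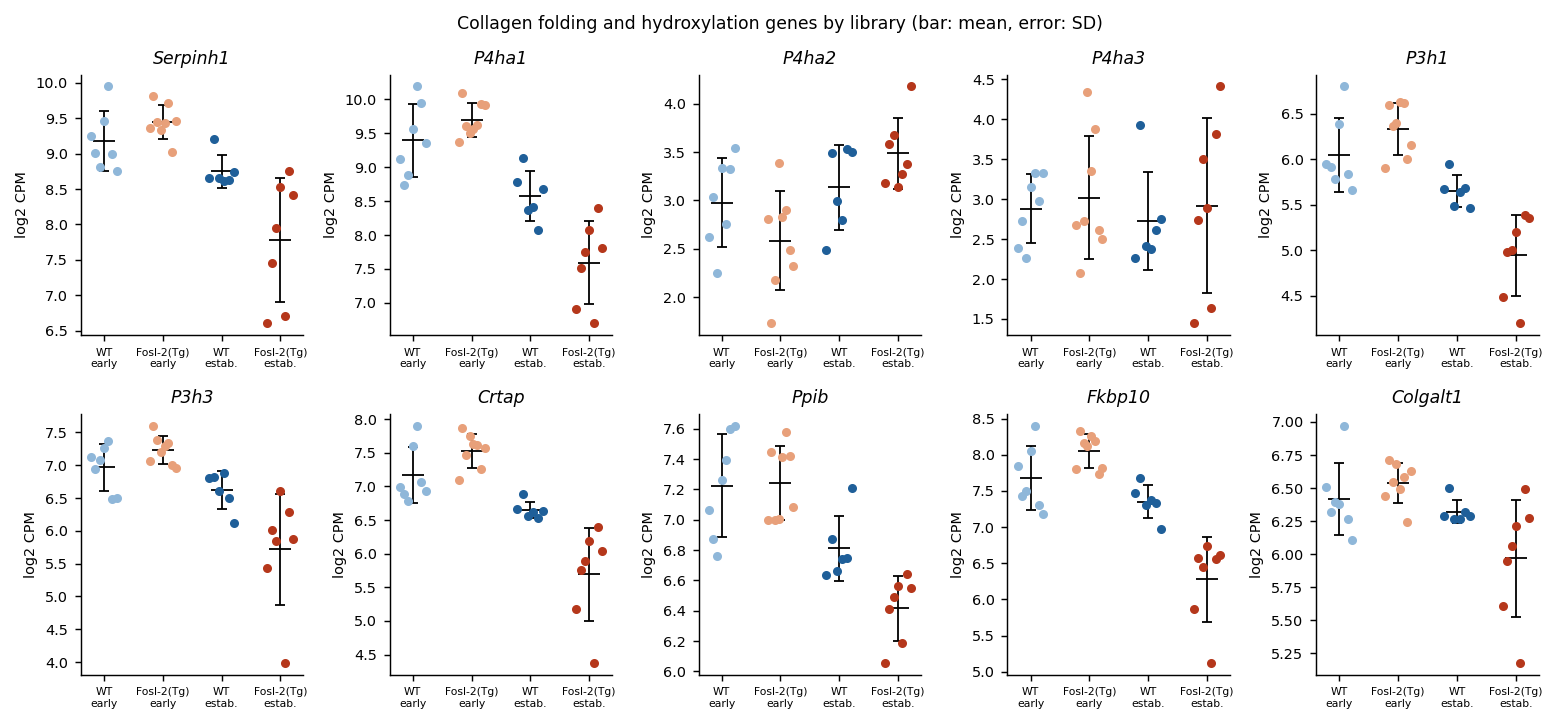
Level of each of the 10 genes in each of the 28 libraries, as log2 CPM (vertical axis, 1 scale per gene), by genotype and stage, where each point is 1 mouse, and the black bar and error bar are the mean and SD. In the established cohort no Fosl-2(Tg) point of P3h1, Crtap or Fkbp10 reaches the WT points, and the early groups overlap for every gene.

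In the established cohort, 3 of the 10 genes were lower in Fosl-2(Tg) than in WT tendon: Fkbp10, P3h1 and P4ha1. Among all 15862 genes tested, 3.37% were called lower. None of the 10 was called higher. 8 of the 10 had a log2 difference below 0, and the median of the 10 was -0.70, against 0.01 over all genes tested. At an unadjusted p below 0.05 the count was 7 of 10, against 26.6% of all genes. Every Fosl-2(Tg) library lay below every WT library for 3 of the 10, Fkbp10, P3h1 and Crtap, which was the case for 2.34% of the genes compared in this way.

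Fkbp10, the prolyl isomerase FKBP65, had the lowest adjusted p-value of the 10 (chr11:100305808-100315669, plus strand, GRCm39). The WT libraries 1 to 6 held 176.6, 204.7, 157.3, 165.7, 161.4 and 125 CPM. The Fosl-2(Tg) libraries 1 to 7 held 58.01, 95.12, 87.55, 106.6, 34.79, 94.42 and 98 CPM. The groups did not overlap, with libraries 5 and 1 the lowest of the Fosl-2(Tg) mice and the other 5 close together. Its log2 difference was -1.004 (SE 0.21, adjusted p = 0.0207, edgeR quasi-likelihood test), a fold of 0.499. It was called in each of the 13 fits that left out 1 library, with values from -1.08 to -0.87, and without Fosl-2(Tg) libraries 1 and 5 it was -0.77 (SE 0.11, adjusted p = 0.00822). Of its exonic bases 25.5% also lie in exons of Nt5c3b or P3h4 on the opposite strand.

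P3h1, the prolyl 3-hydroxylase of type I collagen (chr4:119089974-119106174, plus strand), stood at 50.92, 61.8, 44.66, 49.69, 51.45 and 44.06 CPM in WT. Its Fosl-2(Tg) libraries 1, 2, 3, 4, 5, 6 and 7 stood at 22.36, 31.43, 32, 36.82, 18.26, 41.63 and 40.91 CPM. The highest Fosl-2(Tg) library was thus just below the lowest WT library. The log2 difference was -0.65 (SE 0.17, adjusted p = 0.0393, edgeR). Of its exonic bases 10.6% also lie in exons of AU022252 on the opposite strand. The library kit as named does not keep strand, so reads there cannot be assigned to either gene.

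Crtap, the cartilage-associated protein that is the helper subunit of P3h1 (chr9:114202582-114219802, minus strand), missed the threshold. WT libraries 1 to 6 held 101.6, 117.9, 94.09, 98.68, 92.44 and 98.91 CPM. Fosl-2(Tg) libraries 1 to 7 held 36.17, 54.16, 59.31, 72.83, 20.71, 84.4 and 65.34 CPM. The groups did not overlap and the WT libraries were close together, while the Fosl-2(Tg) libraries were spread. Crtap differed by -0.84 on the log2 scale (SE 0.24, adjusted p = 0.0522, edgeR). Without Fosl-2(Tg) libraries 1 and 5 it was -0.58 (SE 0.11) and was called (adjusted p = 0.0203). Of the Crtap exonic bases 29.5% lie in exons of 4930520O04Rik on the opposite strand.

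Ppib, the third protein of the complex and an isomerase (chr9:65967381-65974142, plus strand), had a smaller difference. It stood at 99.25, 117.3, 101, 107.1, 107.4 and 148.1 CPM in WT libraries and at 66.49, 84.94, 89.82, 94.64, 72.82, 99.97 and 93.77 CPM in Fosl-2(Tg) libraries. Only library 6 of the Fosl-2(Tg) mice reached the lowest WT level. Ppib differed by -0.39 on the log2 scale (SE 0.12, adjusted p = 0.0577, edgeR). Per kilobase, Ppib was 5.849 ± 1.39 (SD, n = 6) times P3h1 in WT and 7.217 ± 1.45 (n = 7) times in Fosl-2(Tg), and Crtap was 3.785 ± 0.294 and 3.216 ± 0.569 times P3h1. Both pairs of ranges overlapped. Ppib shares 26.4% of its exonic bases with Snx22 on the opposite strand.

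P4ha1, a catalytic subunit of prolyl 4-hydroxylase (chr10:59159092-59209126, plus strand), stood at 439.5, 559.6, 331.1, 342.3, 269.9 and 410 CPM in WT. In the Fosl-2(Tg) libraries 1 to 7 it stood at 119.8, 181.9, 214.5, 270.6, 103.7, 336.6 and 225.3 CPM. The groups overlapped: Fosl-2(Tg) libraries 4 and 6 exceeded WT library 5, the male. P4ha1 differed by -0.91 on the log2 scale (SE 0.25, adjusted p = 0.0473, edgeR), and without Fosl-2(Tg) libraries 1 and 5 it was -0.67 (SE 0.20, adjusted p = 0.0813).

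The calls of P3h1 and P4ha1 rested on single libraries to different degrees. P3h1 was called in 5 of the 13 fits that left out 1 library, those without WT library 3 or without Fosl-2(Tg) library 4, 5, 6 or 7, and its adjusted p-value otherwise rose to at most 0.0872. P4ha1 was called in 2 of 13, those without Fosl-2(Tg) library 4 or 6, and its adjusted p-value rose to at most 0.105. Without the established males neither was called (adjusted p = 0.0627 and 0.0542), while Crtap and Fkbp10 were. The sign was negative for both in all 25 alternatives run. With all counts scaled by library totals alone the median of all genes was itself 0.33 and the P3h1 difference was -0.34 (adjusted p = 0.0708).

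P4ha2, another catalytic subunit (chr11:53981553-54022494, plus strand), had a difference above 0 and was not called. Its WT libraries held 5.526, 11.19, 7.891, 6.891, 11.48 and 11.24 CPM, and its Fosl-2(Tg) libraries 8.994, 11.91, 12.74, 8.713, 9.598, 10.29 and 18.04 CPM. The groups overlapped widely, with Fosl-2(Tg) library 7 the highest. The log2 difference was 0.36 (SE 0.21, adjusted p = 0.293, edgeR), with an approximate 95% interval of -0.06 to 0.77 from the SE and a normal distribution. It was called higher in 2 of 25 alternatives, with library totals alone (0.68, adjusted p = 0.019) and in limma voom with quality weights (0.605, adjusted p = 0.0476). P4ha3, the third catalytic subunit (chr7:99934686-99968907, plus strand), ranged from 4.713 to 15.09 CPM in WT and from 2.634 to 21.2 CPM in Fosl-2(Tg), with a log2 difference of 0.41 (SE 0.45, adjusted p = 0.581).

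Expressed as a mix of catalytic subunits, P4ha1 had a lower mean share in established Fosl-2(Tg) tendon. Per kilobase, P4ha1 made up 94.84% ± 1.61 (SD, n = 6) of the summed P4ha1, P4ha2 and P4ha3 level in WT, from 92.2% to 97.1%. In Fosl-2(Tg) it made up 88.12% ± 3.65 (n = 7), from 81.7% to 92.9%. In the early cohort the shares were 97.07% ± 0.925 (n = 7) in WT and 97.57% ± 1.38 (n = 8) in Fosl-2(Tg). The ranges overlapped in both cohorts. P4ha2 held 3.047% ± 1.21 in established WT and 7.175% ± 2.55 in established Fosl-2(Tg) tendon, and P4ha3 2.118% ± 0.669 and 4.709% ± 2.45. These shares are given as a description, with no test.

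The remaining 3 genes had differences below 0 that were not called. Serpinh1 (chr7:98994220-99005076, minus strand) held 392.3 to 592.3 CPM (median 403.3) in WT and 97.08 to 432.3 CPM (median 246) in Fosl-2(Tg), where libraries 1, 5 and 2 were the lowest and library 6 lay within the WT range. Its log2 difference was -0.78 (SE 0.32, adjusted p = 0.141, edgeR). P3h3, a prolyl 3-hydroxylase family member linked to lysine hydroxylation of collagen (chr6:124818049-124834795, minus strand), held 69.24 to 118 CPM in WT and 15.81 to 96.91 CPM in Fosl-2(Tg) (-0.75, SE 0.29, adjusted p = 0.122). Colgalt1, which adds galactose to hydroxylysine (chr8:72063607-72079451, plus strand), held 77.05 to 90.27 CPM in WT and 36.16 to 89.82 CPM in Fosl-2(Tg) (-0.30, SE 0.16, adjusted p = 0.259). Colgalt1 shares 39.8% of its exonic bases with Unc13a on the opposite strand.

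None of the 10 genes was called in the early cohort, while 6 of 15138 genes (0.0396%) were. DESeq2 called none of the 10 either, and 23 of the 15138 genes. At an unadjusted p below 0.05 edgeR gave 0 of 10, against 6.06% of all genes. The log2 difference was above 0 for 9 of the 10, with a median of 0.24 against -0.01 over all genes. The largest were Fkbp10 (0.33, SE 0.17, adjusted p = 0.834) and Crtap (0.32, SE 0.17, adjusted p = 0.834), and P4ha2 alone was below 0 (-0.38, SE 0.23, adjusted p = 0.846). The approximate 95% interval of Fkbp10, from its SE and a normal distribution, was -0.00182 to 0.666. It is somewhat narrower than the edgeR test implies (unadjusted p = 0.0683), and it does not show the genotypes to be alike.

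Early Fkbp10 levels ran from 145.2 to 338.5 CPM (median 180.1) in WT and from 212.3 to 321.2 CPM (median 282.2) in Fosl-2(Tg). Serpinh1 ran from 430.9 to 989.9 CPM (median 517.5) and from 522.6 to 897.2 CPM (median 693.2). P4ha1 ran from 427.3 to 1171 CPM (median 654.7) and from 660.2 to 1092 CPM (median 783.6). For each of these 3 genes the groups overlapped, and the highest library was WT library 5. The tendon markers summed to 19130 to 38390 CPM in early WT and 22740 to 39270 CPM in early Fosl-2(Tg), and the muscle markers to 65 to 7971 and 601.7 to 8040 CPM.

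**Figure D2:**
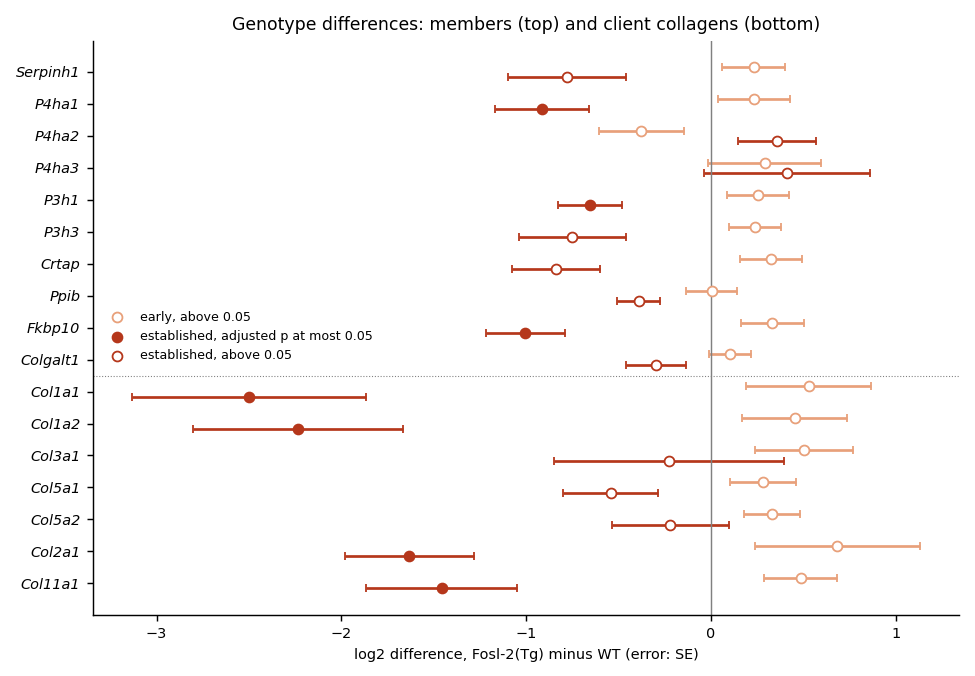
Log2 difference of Fosl-2(Tg) over WT (horizontal axis) for the 10 genes, above the dotted line, and for 7 fibrillar collagen genes, below it, where points are estimates from the fit of each cohort, bars are 1 SE, and filled points passed an adjusted p of 0.05. In the established cohort 3 of the 10 and 4 of the 7 collagens are filled, all to the left of 0, and in the early cohort no point is filled.

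The difference between the stages was tested directly, though sex went with stage, so the test cannot tell the 2 apart. For 4 of the 10 genes the genotype difference was lower in the established than in the early cohort: Fkbp10 (-1.34, SE 0.28, adjusted p = 0.00711), Crtap (-1.17, SE 0.30, adjusted p = 0.0209), P3h1 (-0.92, SE 0.25, adjusted p = 0.0282) and P4ha1 (-1.15, SE 0.33, adjusted p = 0.0356), by the interaction of genotype and stage in edgeR. Among all 16082 genes, 4% were called in that direction. The median of the 10 was -0.955 and the median of all genes was 0.02. Leaving out 1 of the 28 libraries kept Fkbp10 and Crtap called in 28 of 28 fits, P3h1 in 27 (lost without WT established library 2, adjusted p = 0.0531) and P4ha1 in 16. The P4ha1 call was lost without WT early library 1, 2, 3 or 7, Fosl-2(Tg) early library 2 or 7, WT established library 1, 2 or 6, or Fosl-2(Tg) established library 1, 2 or 5. Without Fosl-2(Tg) established libraries 1 and 5, Fkbp10 and Crtap were called. P4ha2 was the one with an interaction above 0 by more than its SE (0.73, SE 0.33, adjusted p = 0.16).

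Within a genotype, the established and early cohorts differed in sex as well as stage. In WT 1 of the 10 genes was called, P4ha1, which was lower in established tendon (-0.87, SE 0.25, adjusted p = 0.0357, edgeR, against 3.48% of all genes called lower). This call was lost in 7 of 28 fits without 1 library, those without WT early library 4, 5 or 6 or WT established library 1, 3, 4 or 5, and with the replicate number as a block, where Ppib was called instead. In Fosl-2(Tg) 9 of the 10 were called, and 47.8% of all genes were. 8 were lower in established tendon, from -0.52 for Colgalt1 (0.19 with library totals alone, where the median of all genes was 0.76) down to P4ha1 (-2.02, SE 0.24, adjusted p = 3.76e-07), Crtap (-1.74, SE 0.21, adjusted p = 5.99e-07) and Fkbp10 (-1.71, SE 0.20, adjusted p = 3.02e-07). P4ha2 was higher (0.88, SE 0.22, adjusted p = 0.00213), and P4ha3 was not called (0.04, SE 0.38).

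Among the collagens that these proteins act on, the type I chains had larger differences than any of the 10 genes. Col1a1 was at 88040, 100100, 69220, 79510, 59590 and 44270 CPM in established WT libraries and at 1868, 10240, 9787, 28260, 989.2, 24870 and 14670 CPM in Fosl-2(Tg) libraries. The groups did not overlap, and libraries 5 and 1 were again the lowest. Of the 7 fibrillar collagen genes 4 were called lower: Col1a1 (-2.50, SE 0.63, adjusted p = 0.0356), Col1a2 (-2.23, SE 0.57, adjusted p = 0.0367), Col2a1 (-1.63, SE 0.35, adjusted p = 0.0207) and Col11a1 (-1.46, SE 0.41, adjusted p = 0.0483), by edgeR. Col3a1 (-0.23, SE 0.62), Col5a1 (-0.54, SE 0.26) and Col5a2 (-0.22, SE 0.31) were not. None of the 7 was called in the early cohort by edgeR, with 2 at an unadjusted p below 0.05, and all 7 differences were above 0, from 0.28 to 0.68.

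Set against Col1a1 in the same library, the 10 genes were higher in established Fosl-2(Tg) tendon, as nearly all genes were. For each 1000 Col1a1 counts, WT libraries held 4.57 to 9.65 Serpinh1 counts (median 5.88) and Fosl-2(Tg) libraries 13.1 to 106 (median 23.3). Fkbp10 held 2.01 to 2.82 (median 2.18) and 3.77 to 35.2 (median 8.95). P3h1 held 0.578 to 0.995 (median 0.635) and 1.3 to 18.5 (median 3.07). The groups did not overlap for any of the 10 genes, though only narrowly for Ppib (WT at most 3.34, Fosl-2(Tg) at least 3.35). Col1a1 itself did not overlap either, and how many of all genes lacked overlap on this ratio was not counted. Among WT libraries the Fkbp10 ratio varied 1.41-fold from lowest to highest. With Col1a1 counts in place of library size, 10 of the 10 genes were called higher in Fosl-2(Tg). So were 99.4% of all genes, since the shared divisor fell. The median of the 10 was 2.87 and that of all genes 4.14 on the log2 scale. P4ha2 (4.29, SE 1.00, adjusted p = 4.41e-05) was the one of the 10 above the median of all genes, and Serpinh1 had the smallest difference (2.53, SE 0.91, adjusted p = 0.00552). Without Fosl-2(Tg) libraries 1 and 5 all 10 were called, with differences from 1.48 for Fkbp10 to 3.03 for P4ha3. In that fit 15453 of 15902 genes were called higher, and the median was 1.73 for the 10 and 2.24 for all genes.

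Ratios to Col1a1 were closer in the early cohort. Serpinh1 held 2.52 to 4.93 counts per 1000 Col1a1 counts (median 3.85) in WT and 1.91 to 4.79 (median 2.57) in Fosl-2(Tg). None of the 10 was called by edgeR, with 1.37% of all genes called. At an unadjusted p below 0.05 edgeR gave 2 of 10, against 49.3% of all genes. DESeq2 called 0. Limma voom with quality weights called 9, all lower in Fosl-2(Tg), and it called 14325 of all 15137 genes. All 10 log2 differences were below 0 (median -0.40), and 97.8% of all genes were below 0 (median -0.71). Without Fosl-2(Tg) early library 1, WT early library 4 or WT early library 5 the count was 2, P4ha2 and Ppib, while 9907 of 15109, 8713 of 15224 and 11359 of 15227 genes were called in these fits.

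**Figure D3:**
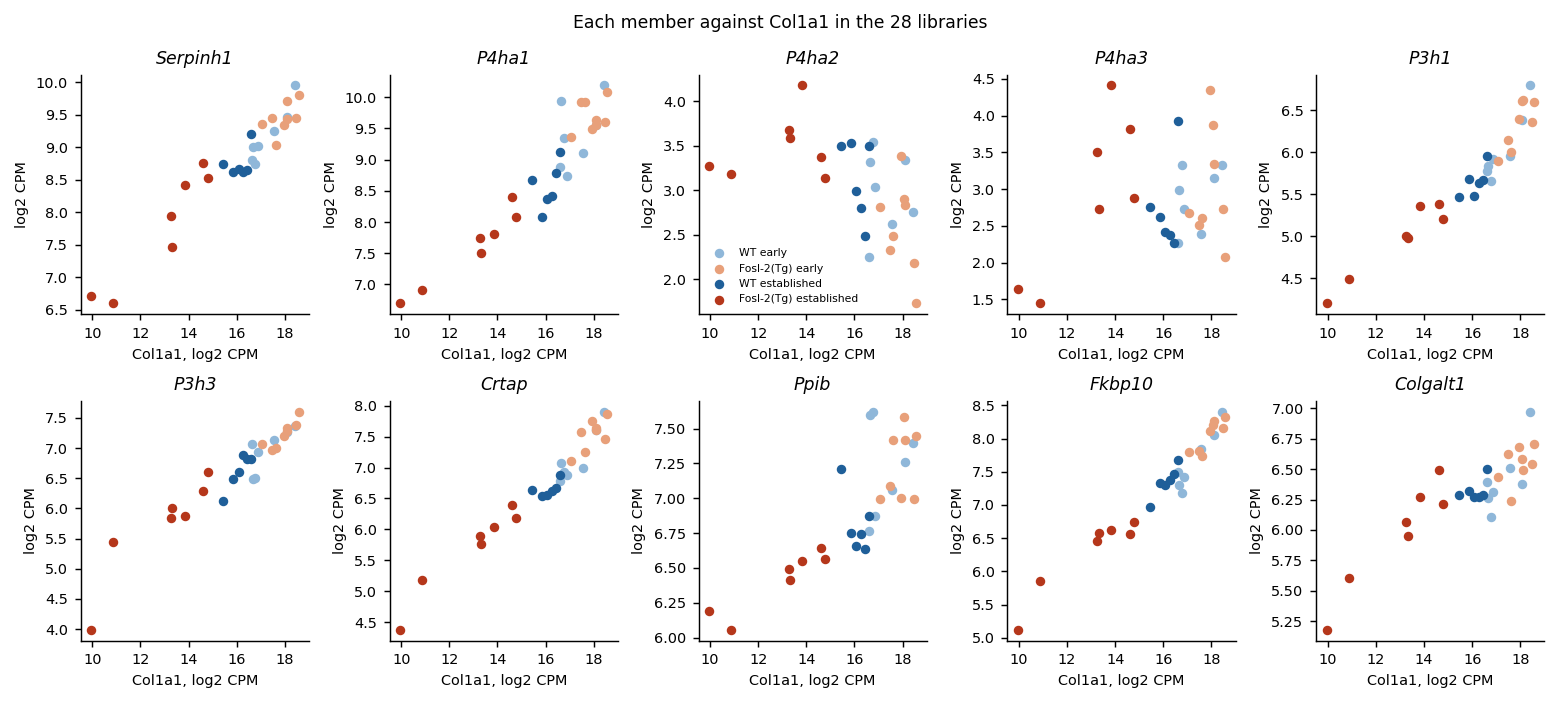
Log2 CPM of each of the 10 genes (vertical axis, 1 scale per gene) against log2 CPM of Col1a1 (horizontal axis) in the 28 libraries, coloured by genotype and stage, where each point is 1 mouse. Fkbp10, Crtap and P3h1 fall close to a rising line over all 4 groups, P4ha2 does not, and Fosl-2(Tg) established libraries 5 and 1 lie at the far left.

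Within a cohort and at fixed genotype, the genes were next fitted on the Col1a1 level of the same library. In the established cohort 8 of the 10 had a slope above 0 that was called, against 9.6% of all genes. Crtap rose by 0.35 log2 units for each log2 unit of Col1a1 (SE 0.04, adjusted p = 0.00022), Serpinh1 by 0.44 (SE 0.06, adjusted p = 0.000755), Fkbp10 by 0.30 (SE 0.04, adjusted p = 0.000616) and P3h1 by 0.24 (SE 0.03, adjusted p = 0.000653), all by edgeR. P3h3, P4ha1, P4ha3 and Colgalt1 had slopes of 0.41, 0.32, 0.53 and 0.22. Ppib (0.09, SE 0.04, adjusted p = 0.158) and P4ha2 (0.05, SE 0.09, adjusted p = 0.758) were not called. All 8 slopes were below 1. Leaving out Fosl-2(Tg) library 5 lost P4ha1 and P4ha3, and leaving out Fosl-2(Tg) library 1 or 6 lost P4ha3. Without WT library 6 Ppib was called as well. Without Fosl-2(Tg) libraries 1 and 5, which had the lowest Col1a1 levels, the calls were lost: 0 of 10 and 0 of 15902 genes passed in edgeR. The median slope of the 10 genes was then 0.25, against 0.31 with all libraries, and errors were larger (Crtap 0.27, SE 0.07, adjusted p = 0.336, edgeR). The slopes of P4ha2 and Ppib, not called with all libraries, turned below 0. Without the established males 2 of the 10 and 76 of 15852 genes were called, and the median slope was 0.26.

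In the early cohort, which does not hold those mice, 5 of the 10 had a called slope above 0, against 2.18% of all genes. Fkbp10 rose by 0.51 (SE 0.07, adjusted p = 0.00115), P3h1 by 0.50 (SE 0.07, adjusted p = 0.00227), Crtap by 0.46 (SE 0.08, adjusted p = 0.00749), Serpinh1 by 0.44 (SE 0.09, adjusted p = 0.0163) and P3h3 by 0.37 (SE 0.08, adjusted p = 0.0245), by edgeR. P4ha1 (0.27, SE 0.15, adjusted p = 0.418) and Ppib (0.07, SE 0.12, adjusted p = 0.867) were not called. WT library 5, with a Col1a1 level of 350400 CPM, was the highest WT library: without it Fkbp10 alone was called. Without WT library 4 the P3h3 call was lost. With the replicate number as a block 0 of the 10 and 24 of 15137 genes were called, and in the Fosl-2(Tg) libraries by themselves 0 of the 10 and 0 of 13834 genes. The median slope of the 10 was 0.34 with the block and 0.26 in the Fosl-2(Tg) libraries, against 0.32 in the whole cohort. By library totals alone 2 were called, with a median slope of 0.07 for the 10 genes and -0.38 for all genes.

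**Figure D4:**
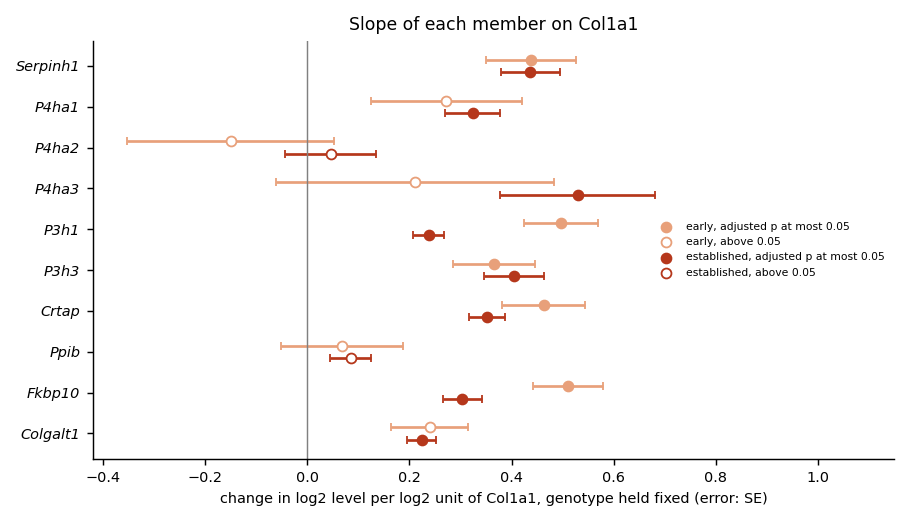
Slope of each of the 10 genes on Col1a1 within a cohort (horizontal axis, change in log2 level for 1 log2 unit of Col1a1, genotype held fixed), where points are estimates, bars are 1 SE, and filled points passed an adjusted p of 0.05. Slopes of 5 early and 8 established genes are filled, and Ppib and P4ha2 lie near 0 in the established cohort.

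Most of the 10 genes rose and fell together from library to library. Over the 28 libraries Pearson's r of log2 levels was 0.977 for P3h1 with Crtap, 0.976 for P3h1 with Fkbp10 and 0.958 for Serpinh1 with Crtap. P4ha2 had negative values with 8 of the other 9 genes, down to -0.56 with P3h3, and 0.505 with P4ha3. P3h1 with Ppib, which share a complex, stood at 0.804. The 28 points share library composition, stage and genotype, so these values are a description. The genes most like the mean of the 10, among 13280 protein-coding genes, were Aldh18a1 (r = 0.981), an enzyme of proline synthesis, Txndc5 (0.979), a disulfide isomerase, Ckap4 (0.973), P4hb (0.972), the beta subunit itself, and Col6a3 (0.97). Col1a1 came at rank 51 (0.941).

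Of 32 other genes of the pathway, chosen by role, 5 were called lower in established Fosl-2(Tg) tendon, against 3.37% of all genes, and 0 higher, with a median of -0.21. The other prolyl isomerases of the ER held 3 of these 5 calls among their 4 genes. Fkbp9 fell from 612.8 ± 122.6 CPM (SD, n = 6) to 218.8 ± 96.81 (n = 7), a log2 difference of -1.48 (SE 0.28, adjusted p = 0.0139, edgeR). Fkbp14, an isomerase whose loss causes a form of Ehlers-Danlos syndrome, had -1.22 (SE 0.30, adjusted p = 0.0335), and Fkbp7 had -1.11 (SE 0.22, adjusted p = 0.0179). Ppic had -1.31 (SE 0.38, adjusted p = 0.0548) and was not called.

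The export of procollagen from the ER held the other calls, Sec13 (-0.52, SE 0.12, adjusted p = 0.0286, edgeR) and Sec31a (-0.53, SE 0.15, adjusted p = 0.0462), which form the outer COPII coat, among 8 genes. Mia3 (TANGO1), the receptor that loads procollagen, had -0.21 (SE 0.09, adjusted p = 0.167). None of the 4 disulfide isomerases was called, and P4hb had -0.42 (SE 0.16, adjusted p = 0.117). The 6 general ER chaperones gave no call and a median of -0.03, with Hspa5 (BiP) at 0.15 (SE 0.21). None of the lysyl hydroxylases with Colgalt2 (median 0.10) or of P3h2 and P3h4 (median -0.48) was called. Among 4 regulators Creb3l1, a transcription factor of secretory cells, had the lowest value (-1.42, SE 0.41, adjusted p = 0.0537). The genes named here without a call (Ppic, Mia3, P4hb, Hspa5 and Creb3l1) were chosen after their values were seen. At an unadjusted p below 0.05 edgeR gave 15 of the 32 in the established cohort, against 26.6% of all genes. None of the 32 was called in the early cohort by edgeR, with 2 at an unadjusted p below 0.05, and the interaction with stage called 7 lower, against 4% of all genes.

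**Figure D5:**
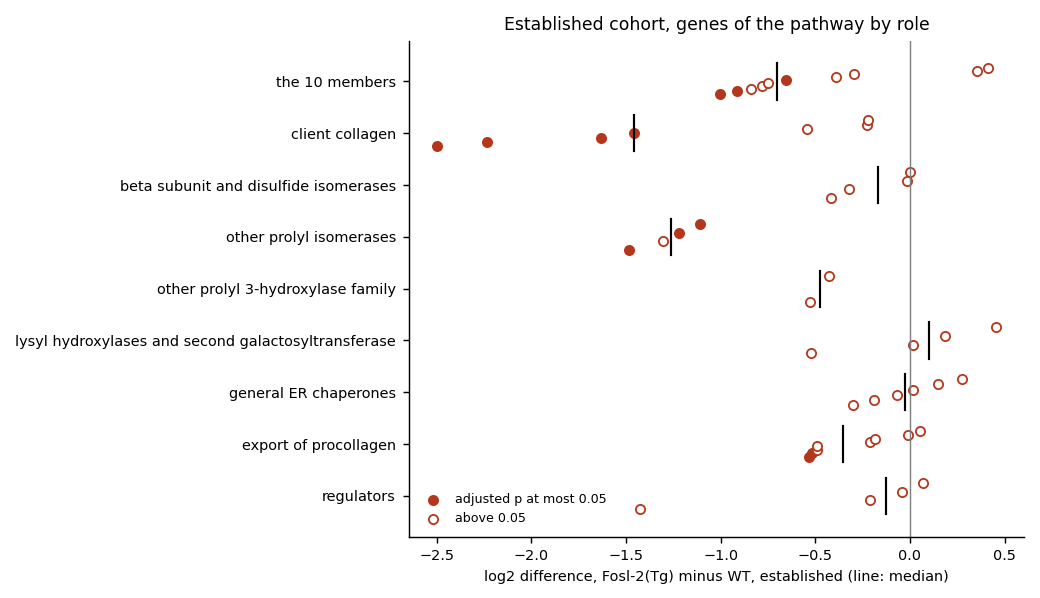
Log2 difference of Fosl-2(Tg) over WT in the established cohort (horizontal axis) for the 10 genes and for the collagens and other pathway genes by role, where each point is 1 gene, black lines are medians, and filled points passed an adjusted p of 0.05. Client collagens and other prolyl isomerases have the lowest medians, -1.46 and -1.26, and general ER chaperones lie around 0.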

How the data were processed

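RNA of 28 mouse tail tendon libraries was analysed. Per the labels and the study's methods, the authors mapped reads with STAR to GRCm39 and the deposited files hold counts per gene from featureCounts, not normalised. Strand and multi-mapping settings are not given in the sources used here. Groups came from the sample titles, and each library is 1 mouse. Of 25719 identifiers, 25505 were named with GENCODE M39. The 10 genes, the lists and the tests were chosen with earlier results of these data known.

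Counts were filtered with filterByExpr (minimum count 10, minimum total 15), scaled by TMM and fitted with the quasi-likelihood test of edgeR 4.0.16 (R 4.3.3), with Benjamini-Hochberg adjustment over all genes and a threshold of 0.05. The contrasts were genotype within each cohort, its interaction with stage, stage within genotype, genotype with Col1a1 counts as library size, and the slope on log2 CPM of Col1a1 (prior count 2). All 10 genes and the 7 collagens were named. Of the other pathway genes, those called in the established fit were named by rule. The 5 most alike genes had the highest Pearson's r with the mean standardised level of the 10, among protein-coding genes of at least 1 CPM on average. The scripts were tested on simulated data. Alternatives were DESeq2 1.42.0, limma 3.58.1 voom, other scalings and filters, a muscle score, a replicate block and left-out libraries. Leaving out Fosl-2(Tg) established libraries 1 and 5 was chosen after seeing the data. Levels are TMM-scaled CPM from the deposited counts.

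Replicate numbers were checked for pairing by correlating deviations of same-numbered WT and Fosl-2(Tg) libraries. In the early cohort all 7 correlations were over 0.1 (0.145 to 0.405). In the established cohort they ran from -0.223 to 0.69. Differently numbered libraries were not correlated for reference, so these values cannot show whether the numbers mark pairs. The main fits of both cohorts used no pairing, and the replicate block was run as an alternative.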

Additional observations from a re-analysis of the deposited data

Results flagged for a closer look

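For 3 of the 44 groups of libraries examined (10 genes and Col1a1 in 4 groups), 1 library lay far from the others of its group by Dixon's criterion, which chance meets in about 1 in 20 groups. All 3 were WT established library 2, which was high for Serpinh1 (592.3 CPM), P4ha3 (15.09 CPM) and Colgalt1 (90.27 CPM). The same library had the highest Col1a1 level of its group, 100100 CPM.

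The genotype difference of 4 genes differed between the stages by the interaction test in edgeR, which cannot tell stage from sex here. These were P4ha1 (-1.15, adjusted p = 0.0356), P3h1 (-0.916, adjusted p = 0.0282), Crtap (-1.17, adjusted p = 0.0209) and Fkbp10 (-1.34, adjusted p = 0.00711), each lower in the established cohort. The 4 genes passed no threshold in the early cohort, where their log2 differences were above 0.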

How the results depend on the processing

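In the established cohort the count of 3 genes called between genotypes became 5 in DESeq2, with a muscle score, with all 28 libraries in 1 fit and with the replicate number as a block, and 6 in limma voom. It ran from 1 to 5 when 1 library was left out. With the replicate block 924 of 15862 genes were called, against 1032 in the main fit. The interaction count of 4 ran from 2 to 6. It was 2 without Fosl-2(Tg) libraries 1 and 5, where 645 of 16150 genes were called, against 1195 of 16082 in the main fit. The WT stage count of 1 became 2 in DESeq2, voom and with the muscle score, 0 with library totals, and ran from 0 to 2. Over all genes 935 were called in the main fit, and 1573, 2145, 1435 and 2374 in these alternatives, in that order. The early ratio to Col1a1 gave 9 in voom, where 14325 of 15137 genes were called, and 0 to 2 with 1 library left out. The established slope count of 8 was 3 with the replicate block, 2 without males and 0 without libraries 1 and 5. Over all genes 2517 of 15861 were called in the main fit, and 70, 76 and 0 in these alternatives, in that order. The early slope count of 5 was 2 with library totals, 0 in Fosl-2(Tg) libraries only and 0 with the replicate block. It was 8 with 1 slope over 28 libraries, and 1 to 5 with 1 library left out. Over all genes 415 of 15137 were called in the main early slope fit and 2786 of 16081 with 1 slope over 28 libraries. The cause was not tested.

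Signs turned for 4 genes: P4ha2, P4ha3, Ppib and Colgalt1. One of these values was called, the Colgalt1 stage difference in Fosl-2(Tg) (-0.52). With library totals Colgalt1 was 0.0126 (established), -0.0563 (early), 0.0687 (interaction), 0.125 and 0.194 (stage in WT and Fosl-2(Tg)) and -0.0419 (early slope), Ppib was -0.176 (early), 0.0982 (interaction) and -0.269 (early slope), and P4ha3 was 0.151 (WT stage) and -0.0914 (early slope). With the replicate block P4ha3 was -0.0288 (established), -0.177 (interaction), 0.025 and -0.152 (stage in WT and Fosl-2(Tg)) and -0.143 (early slope), and P4ha2 was -0.0101 (established slope). Ppib was -0.0598 with the muscle score (early) and P4ha3 -0.0485 in voom (Fosl-2(Tg) stage). The P4ha2 slope was -0.00379 in voom and -0.349 without libraries 1 and 5 (established), where the Ppib slope was -0.0412, and 0.0085 with 1 slope over 28 libraries (early). With 1 library left out, Ppib ran from -0.0613 to 0.068 (early), P4ha3 from -0.221 to 0.486 (interaction), -0.451 to 0.0121 (WT stage) and -0.323 to 0.281 (Fosl-2(Tg) stage), and P4ha2 from -0.00125 to 0.0938 (established slope).

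Over all genes, 1032 were called in the established cohort (498 higher, 534 lower), against 2146 in DESeq2, 1984 in voom, 1699 with the muscle score, 1663 with 28 libraries, 560 without males and 563 without libraries 1 and 5. With 1 library left out the count ran from 361 to 1166: 361, 416, 445, 456 and 559 without WT library 1, 2, 4, 5 or 6, and 403, 463 and 684 without Fosl-2(Tg) library 1, 2 or 3. Library totals gave 7236 higher and 308 lower, with the median of all genes at 0.33. In the early cohort 6 became 23 in DESeq2, 10 in voom and 11 with the replicate block. P4ha2 (counts of 29 to 564) and P4ha3 (37 to 557) had the lowest counts of the 10 genes.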
